A study of Homo sapiens with 6 samples.

Results

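The synaptic vesicle and SNARE release machinery was followed in human neurons through 67 genes, the rows of a table of 19823 genes whose names placed them among the synaptotagmins, syntaxins, syntaxin-binding proteins, SNAP proteins, VAMPs, synapsins, RAB3 GTPases, complexins, RIM proteins, UNC13 proteins or SV2 proteins. The members were chosen by a rule on names and not on values, though with earlier results of these data known. All 67 passed the filter on low counts that left 18130 genes for testing. The samples were glutamatergic excitatory neurons (iNeurons) made by inducing the transcription factor NGN2 in human induced pluripotent stem cells of the WTc11 line, and were profiled by poly(A) RNA-seq. In all 6 samples the RNA-binding protein RBM12 had been knocked down by CRISPR interference, so the knockdown itself could not be checked against a control guide. Of these, 3 were untreated and 3 had received isoproterenol, an agonist of β-adrenergic receptors that raises cAMP. The labels give no dose or duration, the cells were the parental line with its native receptors, and the iPSC line is clonal. The comparison asked which release genes differed in transcript level between isoproterenol-treated and untreated RBM12-depleted neurons.

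Neurons release transmitter when a vesicle fuses with the plasma membrane at the active zone. Fusion is driven by the SNARE complex, in which VAMP2 on the vesicle zippers with SNAP25 and a syntaxin on the plasma membrane. UNC13 and RIM proteins prime and tether the vesicle, RAB3 GTPases and synapsins position it, complexins clamp the assembled SNAREs, and synaptotagmins sense the calcium that triggers fusion. Not every protein in these families acts at the synapse: several syntaxins and VAMPs serve fusion at the Golgi, endosome or lysosome, and SNAP91 (AP180) is a clathrin adaptor that shares only its name with the SNAREs.

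Raised cAMP activates CREB, a transcription factor that binds the cAMP response element TGACGTCA and its shorter core TGACG, so the promoters of the members were read first. RefSeq windows (GRCh38.p14) of 300 bases, from 250 before to 50 after a transcription start, were matched for 53 of the 67 genes and numbered 84. CPLX1, RIMS2, RIMS4, SNAP25, STX17, STXBP4, SYN3, SYT12, SYT13, SYT17, SYT7 and UNC13D were among those not matched. TGACGTCA reads the same on both strands and contains TGACG on each of them. It was in 3 of the 84 windows (3.57%), those of SYN1, STXBP3 and STX12, beside 2.63% of 17137 windows of tested genes and 1.85% of all 35116 windows. TGACG on either strand was in 27 of the 84 (32.1%), from 21 genes, beside 30.9% and 24.6%. The windows of the members therefore held both motifs at shares near those of the tested genes. The 200 bases upstream of the start are printed for SYN1 and STXBP3, which hold the full element, for SYT4, which holds the core 2 times, and for SV2C, RAB3B and SYT10, which are among the members called higher with isoproterenol and whose windows hold neither. Capitals mark TGACGTCA, TGACG or its complement CGTCA.
SYN1, chrX:47619858-47620057, minus strand: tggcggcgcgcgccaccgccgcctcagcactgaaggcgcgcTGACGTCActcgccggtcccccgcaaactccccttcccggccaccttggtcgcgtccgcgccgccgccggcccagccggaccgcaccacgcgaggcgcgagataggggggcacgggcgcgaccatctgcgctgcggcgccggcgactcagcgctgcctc
STXBP3, chr1:108746474-108746673, plus strand: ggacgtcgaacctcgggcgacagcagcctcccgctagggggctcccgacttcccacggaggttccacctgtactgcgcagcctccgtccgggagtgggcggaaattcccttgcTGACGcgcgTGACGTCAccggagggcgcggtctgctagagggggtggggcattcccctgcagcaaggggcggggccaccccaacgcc
SYT4, chr18:43277491-43277690, minus strand: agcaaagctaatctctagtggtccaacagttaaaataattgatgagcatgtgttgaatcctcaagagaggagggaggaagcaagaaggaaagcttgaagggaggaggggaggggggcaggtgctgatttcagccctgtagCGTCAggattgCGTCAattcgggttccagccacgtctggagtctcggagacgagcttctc
SV2C, chr5:76083183-76083382, plus strand: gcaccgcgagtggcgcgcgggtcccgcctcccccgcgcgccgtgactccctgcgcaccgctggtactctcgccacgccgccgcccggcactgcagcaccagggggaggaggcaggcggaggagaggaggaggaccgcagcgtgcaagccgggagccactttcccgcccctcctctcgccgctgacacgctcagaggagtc
RAB3B, chr1:51990701-51990900, minus strand: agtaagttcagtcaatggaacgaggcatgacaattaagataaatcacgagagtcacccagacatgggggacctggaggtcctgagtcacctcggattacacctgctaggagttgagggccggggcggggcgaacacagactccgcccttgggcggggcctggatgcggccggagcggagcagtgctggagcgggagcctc
SYT10, chr12:33439820-33440019, minus strand: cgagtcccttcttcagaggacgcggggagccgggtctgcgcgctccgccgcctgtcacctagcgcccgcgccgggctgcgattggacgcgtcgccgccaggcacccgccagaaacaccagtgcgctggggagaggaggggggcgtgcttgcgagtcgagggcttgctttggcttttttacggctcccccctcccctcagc
Counted from the transcription start, the first base of the full element was at -159 in SYN1 and -78 in STXBP3, and the cores of SYT4 began at -60 and -49. A match in these letters is a description and not a bound site.

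The levels of the members are given as normalized counts, that is reads divided by a size factor for each sample. Recovered reads totalled between 18116816 and 21488793 per sample. Mitochondrial genes took 3.44% to 4.54% of the reads and the 10 most abundant genes 7.21% to 7.86%. Of 8 genes known to respond to cAMP in neurons, all 8 had a positive log2 fold change (median 1.29). This list was chosen with earlier results of these data known, so its direction is a description and not an independent check of the treatment. In limma NR4A3 alone passed FDR 0.05 without the replicate number as a block, and 7, FOS and NPAS4 among them, passed with it, while NR4A1 did not (adjusted p = 0.119). All 13 genes listed as markers of glutamatergic neurons had reads, though the list also holds general neuronal genes such as MAP2. The vesicular glutamate transporters SLC17A6 and SLC17A7 were at 12393 to 14710 and 2968 to 3318 normalized counts, while TUBB3, a neuronal tubulin, was at 69.2 to 94.4. SLC18A3, the vesicular acetylcholine transporter, was at 2419 to 2884, so reads of these genes do not by themselves establish a purely glutamatergic identity. Summed markers of GABAergic neurons lay between 265 and 331 in untreated and between 269 and 302 in isoproterenol samples, with 5 of 8 markers measured. Summed markers of astrocytes (2 of 7 measured) were 160 to 175 and 134 to 157, of proliferation (2 of 6) 396 to 407 and 406 to 464, and of pluripotency (3 of 7) 19.4 to 19.8 and 15.4 to 28.8. The other genes of these lists, GFAP and MKI67 among them, had no entry among the 19823 genes, so no level is given for them.

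The members spanned a wide range, from a mean of 10.1 normalized counts for SYT15 to 26038 for SYT1, and 61 of the 67 had a mean of at least 100. Levels of different genes were compared per kilobase of merged exons (GENCODE 44). On this scale SYT4 (3865), RAB3A (3754), SV2A (3449), VAMP2 (2758) and SYT1 (2752 normalized counts per kb) were near the top. A single paralog took most of the summed level in several families. SV2A held 89.4% of the SV2 level, VAMP2 79.4% of the VAMP level, UNC13A 72.7% of the UNC13 level and CPLX2 72.7% of the complexin level. The synaptotagmins were divided more evenly, with SYT4 at 26.5%, SYT1 at 18.9%, SYT13 at 15.0% and SYT11 at 12.3%. The syntaxins were led by STX12 (901.5 per kb), an endosomal syntaxin, which stood above STX1A (511), a syntaxin of the neuronal plasma membrane.

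The length used decided the leading gene in 2 of the 11 families. With the length of the Ensembl canonical transcript in place of merged exons, SYT1 (5534 per kb) stood above SYT4 (4230), and SNAP25 (4096) above SNAP91 (2637), whereas with merged exons SNAP25 was at 413 and SNAP91 at 1753. The merged exons of SNAP25 span 20.4 kb against 2.05 kb in the canonical transcript. Each of the other 9 families kept its leading gene.

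**Figure D1:**
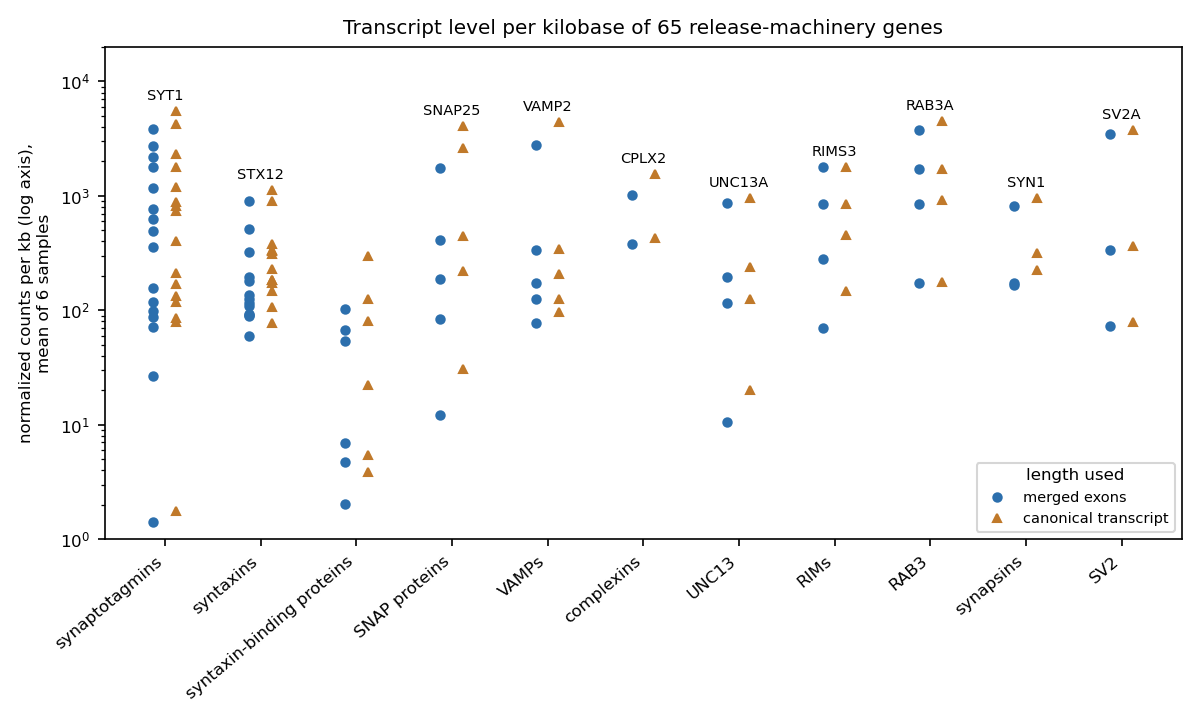
Level of 65 of the 67 genes by family, as normalized counts per kilobase averaged over 6 samples (log axis), with merged exon length (circles) and canonical transcript length (triangles). The label names the leading gene of 10 families with the canonical length, and SNAP25 moves from 413 to 4096 per kb between the lengths.

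Across the 67 genes, isoproterenol and untreated neurons differed little. The median log2 fold change was 0.0033, beside 0.0015 over all tested genes, and 52 of the 67 lay within 0.1 of 0 on the log2 scale. At a mean of at least 100 this held for 82.0% of the 61 members and for 71.4% of the 11587 tested genes, so small changes were common to expressed genes. Without regard to replicate numbers, no member passed FDR 0.05 (limma, smallest adjusted p = 0.439, for SYT10), beside 0.0165% of all tested genes, which is 3 genes. At an unadjusted p under 0.05 there were 7 members in this fit (7.68% of all tested genes), 6 with edgeR and 4 with DESeq2, and neither edgeR nor DESeq2 called a member at FDR 0.05.

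Samples with the same replicate number varied together, and much of the spread among the members followed that number. Of the sum of squares of a member's 6 log2 values, the replicate number took a median of 62.6% and the treatment 10.9%. For the 61 members with a mean of at least 100 these medians were 64.7% and 8.87%, beside 50.2% and 16.3% over the 11587 tested genes at that level. The number took the larger share in 58 of the 67. At a mean of at least 100 it did so in 90.2% of the members and in 72.0% of the tested genes. The number has more degrees of freedom than the treatment, so a larger share is expected for it even without any effect. SV2B, a vesicle glycoprotein, showed this most plainly, with untreated values of 4817, 4103 and 4853 and isoproterenol values of 4719, 4169 and 4875, of whose spread 98.9% followed the number. UNC13A, the principal priming factor, had untreated values of 9658, 8484 and 10260 and isoproterenol values of 9920, 8903 and 10393, so that replicate 2 was lowest in both groups. In RAB3B and SNAP25, too, replicate 2 was the lowest of each group. The labels do not say whether replicates were separate differentiations, so p-values cannot be taken to measure the spread between differentiations. In limma the variance of each gene is also drawn toward that of genes at a like level. Its p-values and intervals therefore do not rest on a member's own pairs alone.

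**Figure D2:**
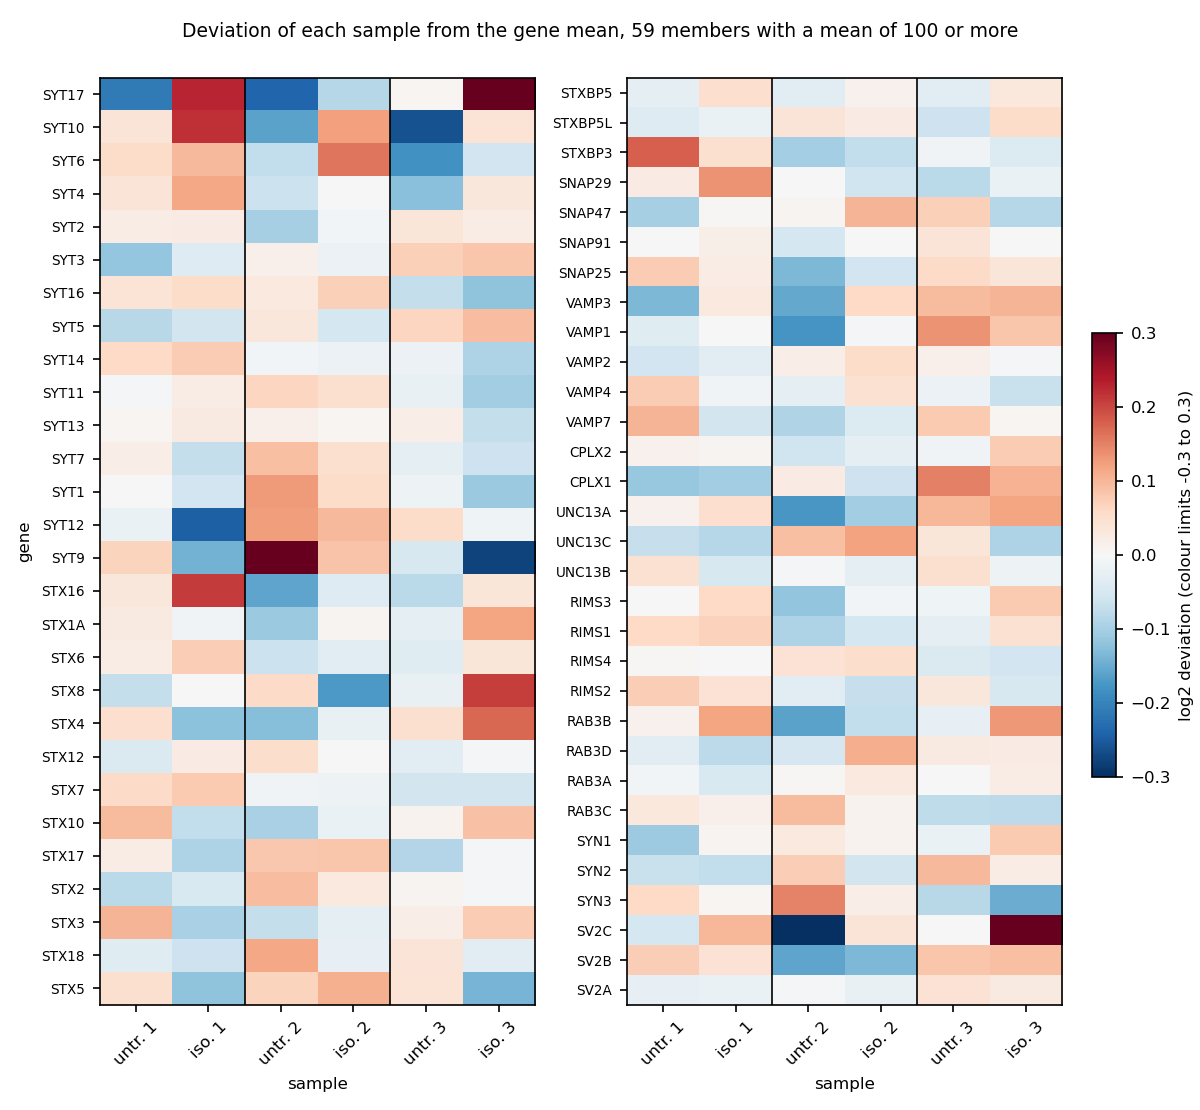
Deviation of each sample from the mean of the gene on the log2 scale (colour, limits -0.3 to 0.3) for 59 of the 61 members with a mean of at least 100, with samples ordered by replicate number. Columns that share a number are often of like colour, as in UNC13A and SV2B, where both samples of number 2 are low.

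When the replicate number was taken into account as a block, 9 members passed FDR 0.05, of which 7 were higher and 2 lower with isoproterenol. Among all tested genes, 2.82% were called higher and 2.06% lower in this fit. These shares are not matched for level: 61 of the 67 members had a mean of at least 100, beside 11587 of the 18130 tested genes. The higher ones were SV2C, SYT17, SYT10, SYT6, RAB3B, SYT4 and RIMS3 and the lower ones SYT1 and SYT9, so that 6 of the 9 were synaptotagmins, the largest family of the group with 16 members. The edgeR fit with the block called the same 9 genes, beside 2.92% of all tested genes higher and 2.47% lower. These are small differences, between a fold of 0.857 and 1.27. In bulk RNA, fewer cells of a kind and less transcript per cell cannot be told apart.

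**Figure D3:**
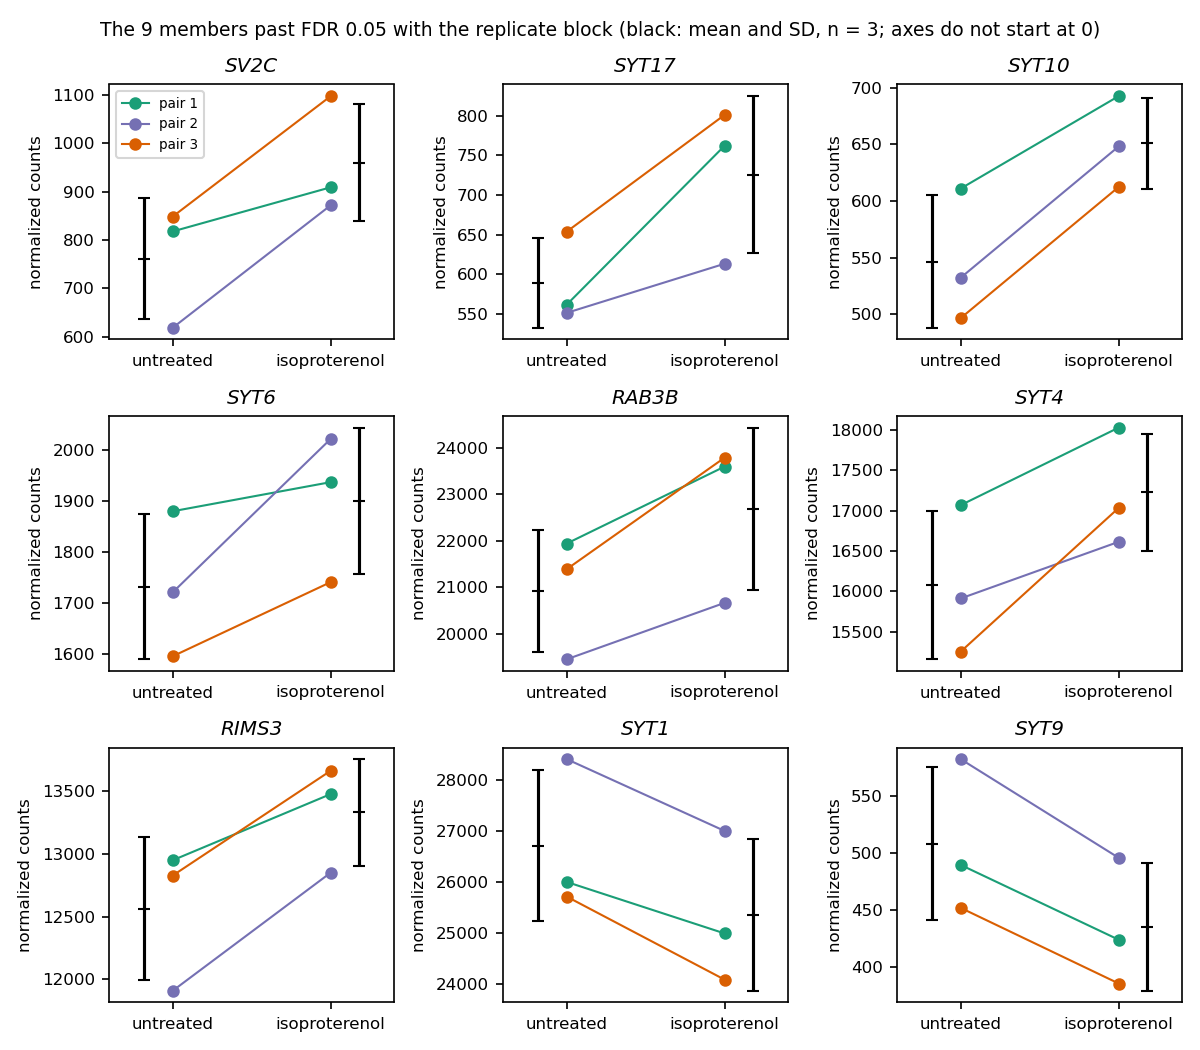
Normalized counts of the 9 members that passed FDR 0.05 with the replicate block, in each of the 6 samples, with lines joining samples of the same number and black bars for the mean and SD of 3 samples; the axes do not start at 0. In each panel the 3 lines run in the same direction, while the groups overlap in all panels but those of SV2C and SYT10.

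SV2C (chr5:76083383-76353939, plus strand) showed the largest of these differences. It is the least abundant SV2 paralog here, with 1.89% of the family's level per kb, and is a vesicle glycoprotein of restricted brain distribution that botulinum neurotoxin A uses as a receptor. Its normalized counts were 818, 618 and 848 in the untreated samples (replicates 1, 2 and 3, the order used throughout) and 909, 872 and 1098 in the isoproterenol ones. Every isoproterenol value lay above every untreated value. The means were 761 ± 125 and 959 ± 121 (SD, n = 3), a log2 fold change of 0.34 ± 0.14 (SE of the fit without the block, used below unless stated). SV2C did not pass limma without the block (adjusted p = 0.629) and did with it (SE 0.055, adjusted p = 2.67e-06). Its pairs were uneven, with log2 fold changes of 0.15, 0.50 and 0.37, and the SE with the block borrows from other genes. It also passed with each pair left out in turn, with log2 fold changes of 0.43, 0.26 and 0.32. Its paralogs SV2A and SV2B had log2 fold changes of -0.0094 and 0.00 and passed in neither fit.

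Of the synaptotagmins called higher, SYT17 and SYT10 changed most. SYT17 (chr16:19167971-19268332, plus strand), an atypical member without a transmembrane segment, was at 562, 552 and 654 in untreated and 762, 614 and 801 in isoproterenol samples. Its groups overlapped, since isoproterenol replicate 2 was below untreated replicate 3. The log2 fold change was 0.30 ± 0.095 (SE; adjusted p = 0.457 without and 0.000405 with the block). Without pair 1 the call was lost (adjusted p = 0.0665), and without isoproterenol replicate 2 SYT17 passed even in the fit with no block (log2 fold change 0.41, adjusted p = 0.0307). SYT10 (chr12:33374238-33439819, minus strand), a calcium sensor for secretion of IGF-1 from olfactory bulb neurons, was at 611, 532 and 497 in untreated and 692, 648 and 612 in isoproterenol samples. All isoproterenol values exceeded all untreated ones, although the lowest of them, 612.4, was next to the highest untreated value, 610.9. Its log2 fold change was 0.26 ± 0.082 (SE; adjusted p = 0.439 without and 0.00476 with the block), and without pair 3 it did not pass (adjusted p = 0.0722).

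SYT4 and SYT6 differed by smaller amounts. SYT4 (chr18:43267892-43277535, minus strand), an abundant synaptotagmin found on dense-core vesicles, whose gene is known to be induced by depolarization and cAMP, was at 17067, 15912 and 15253 in untreated and 18028, 16614 and 17034 in isoproterenol samples. It was higher with isoproterenol in each pair, but isoproterenol replicates 2 and 3 were below untreated replicate 1. The log2 fold change was 0.10 ± 0.042 (SE; adjusted p = 0.596 without and 9.95e-05 with the block), and without pair 3 the call was lost (adjusted p = 0.0998). SYT6 (chr1:114089291-114153880, minus strand), of the group of synaptotagmins that form disulfide-linked dimers, was at 1879.6, 1720.4 and 1595 in untreated and 1937, 2022 and 1741 in isoproterenol samples. Its log2 fold change of 0.13 ± 0.065 (SE) passed with the block (adjusted p = 0.0242) but not without it (adjusted p = 0.651), and was lost without pair 2 (adjusted p = 0.422) or pair 3 (adjusted p = 0.105).

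The lower members were both calcium sensors for fast release. SYT1 (chr12:78863993-79452008, plus strand), the main such sensor of forebrain neurons, was at 26006, 28421 and 25718 in untreated and 24992, 27007 and 24083 in isoproterenol samples. It was lower in each pair, by 0.057, 0.074 and 0.095 on the log2 scale, while isoproterenol replicate 2 stayed above untreated replicates 1 and 3. The means were 26715 ± 1485 and 25361 ± 1496 (SD, n = 3), a fold of 0.949, with adjusted p = 0.733 without and 0.00102 with the block. Without pair 3 the adjusted p was 0.0756. SYT9 (chr11:7238778-7469043, plus strand) was at 489.7, 583 and 452 in untreated and 424, 496 and 386 in isoproterenol samples, and its pairs gave the near-equal log2 fold changes -0.21, -0.23 and -0.23. The mean log2 fold change was -0.22, with an SE of 0.071 with the block and 0.10 without it. SYT9 passed narrowly with the block (adjusted p = 0.0451 with and 0.645 without it). It did not pass when any pair was left out (adjusted p = 0.129, 0.173 and 0.169 without pairs 1, 2 and 3). SYT9-AS1, annotated on the opposite strand, shares 2.53% of the exonic bases of SYT9, and whether the counting used strand is not given in the sources used here.

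The remaining synaptotagmins did not pass in either fit. SYT2, a fast sensor like SYT1, had a log2 fold change of 0.026, SYT7, a high-affinity sensor of asynchronous release, -0.057, and SYT11, which does not bind calcium, -0.023. SYT15, at 5.22 to 17.0 normalized counts, had the widest pair values of the family, from -0.27 to 1.53. SYT2 shares 27.0% of its exonic bases with PPP1R12B on the opposite strand.

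Among the proteins that tether and prime vesicles, RAB3B and RIMS3 were called higher. RAB3B (chr1:51907956-51990700, minus strand) is a vesicle GTPase with 26.3% of the RAB3 level per kb. It was at 21941, 19447 and 21388 in untreated and 23602, 20665 and 23795 in isoproterenol samples. Both samples of replicate 2 were low, and its isoproterenol value was below untreated replicates 1 and 3. The log2 fold change was 0.12 ± 0.063 (SE; adjusted p = 0.717 without and 4.10e-07 with the block), and RAB3B passed with each pair left out. The paralogs RAB3A (log2 fold change 0.0033), RAB3C (-0.035) and RAB3D (0.037) passed in neither fit. RAB3A, the most abundant, was at 6667, 6719 and 6700.2 in untreated and 6494, 6837 and 6808 in isoproterenol samples.

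RIMS3 (chr1:40620680-40665682, minus strand) encodes a short RIM that lacks the RAB3-binding and UNC13-binding part of the long RIMs. It took 59.9% of the RIM level per kb and was at 12949, 11909 and 12827 in untreated and 13477, 12851 and 13663 in isoproterenol samples. Its log2 fold change was 0.086 ± 0.039 (SE; adjusted p = 0.629 without and 0.00253 with the block), and the call was lost without pair 2 (adjusted p = 0.0812) or pair 3 (adjusted p = 0.0556). RIMS1, the main long RIM, had a log2 fold change of 0.041 and passed in neither fit, and the same held for RIMS2 (-0.050) and RIMS4 (-0.0041). UNC13A (0.042), UNC13B (-0.059), UNC13C (-0.038) and UNC13D (0.035) did not pass either.

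The SNAREs themselves showed no member past FDR 0.05 in either fit, among 14 syntaxins, 5 VAMPs and, SNAP91 apart, 4 SNAP proteins. Of all tested genes, 2.82% were called higher and 2.06% lower with the block and 0.0165% were called without it, so few calls were expected in a group of this size. Only STX16, a syntaxin of the trans-Golgi network that shares 28.5% of its exonic bases with a read-through gene, had an unadjusted p under 0.05 with the block (log2 fold change 0.14, adjusted p = 0.114), and without the block none did. Of the 18130 tested genes, 2929 had such a p with the block and 1393 without it. SNAP25 was at 8857, 7651 and 8743 in untreated and 8523, 8066 and 8618 in isoproterenol samples, a log2 fold change of 0.00 with a 95% interval of -0.047 to 0.047 with the block; its sign turned with edgeR (-0.0044) and DESeq2 (-0.0043). VAMP2 was at 9001, 9496 and 9465 in untreated and 9163, 9729 and 9320.1 in isoproterenol samples (log2 fold change 0.013, interval -0.031 to 0.057). STX1A was at 1919, 1746 and 1846 in untreated and 1869.9, 1894 and 2045 in isoproterenol samples, and its log2 fold change of 0.076 had an interval of -0.00024 to 0.15 with the block (adjusted p = 0.311). VAMP1 had a log2 fold change of 0.052, and its exons overlap those of TAPBPL on the opposite strand over 10.4% of their bases. The endosomal STX12, which led its family per kb, had a log2 fold change of 0.014, and SNAP91 one of 0.010.

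Of the proteins that regulate SNARE assembly, the complexins CPLX1 and CPLX2 had log2 fold changes of -0.041 and 0.037. SYN1, which coats vesicles and ties them to the cytoskeleton and whose promoter holds the full element, was at 2837, 3123 and 3017 in untreated and 3075, 3083 and 3228 in isoproterenol samples. Its pairs gave log2 fold changes of 0.12, -0.019 and 0.098, and the mean of 0.065 did not pass with the block (adjusted p = 0.292). STXBP3, whose promoter also holds it, was at 356, 293 and 312 in untreated and 325, 299 and 306 in isoproterenol samples (log2 fold change -0.045, adjusted p = 0.867 with the block). The other synapsins, SYN2 (-0.070) and SYN3 (-0.084), were lower with isoproterenol in all 3 pairs and passed in neither fit.

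For 14 genes taken as the core of evoked release, among them SYT1, SNAP25, VAMP2, UNC13A, RIMS1, RAB3A, CPLX1, SYN1 and SV2A, the intervals were set beside limits of 0.1 and 0.2. Their median log2 fold change was 0.0081 and their range -0.075 to 0.076, and SYT1 alone passed with the block. With the block, the 95% interval of 8 of the 14 lay within 0.1 of 0 and that of all 14 within 0.2, and without it 12 of the 14 lay within 0.2. These intervals use the moderated variance. The limit of 0.2 is wider than log2 fold changes called with the block, such as those of RAB3B (0.12) and SYT4 (0.10), so changes of that size are not excluded.

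**Figure D4:**
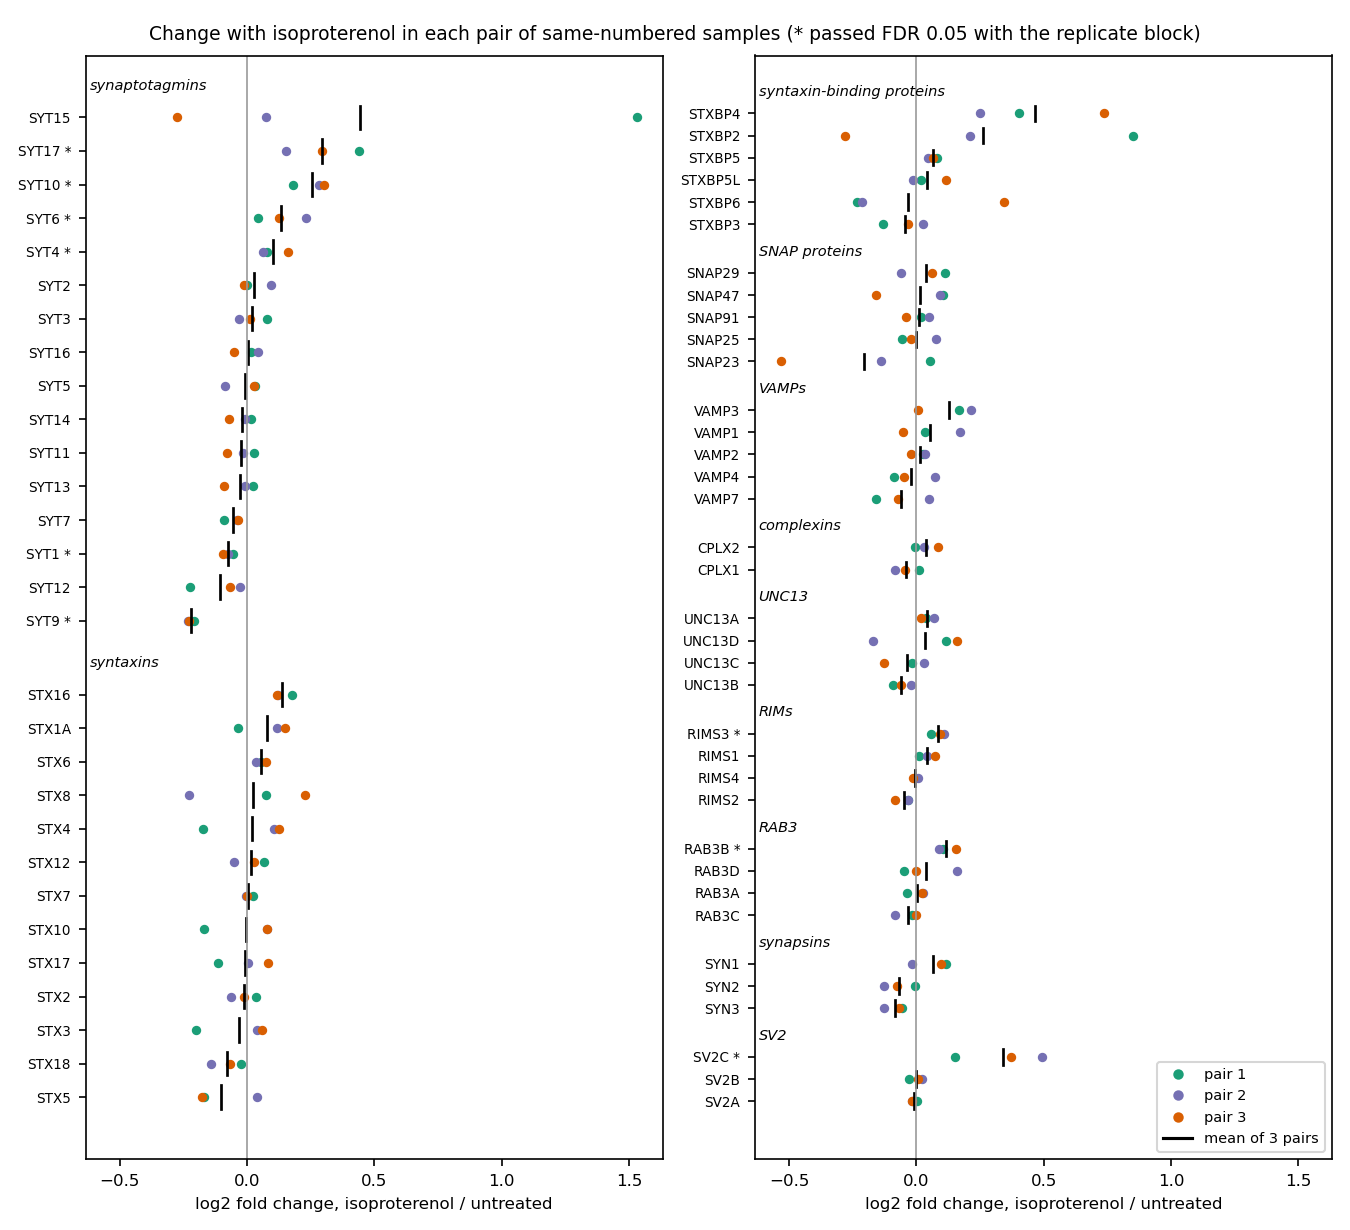
Log2 fold change of isoproterenol over untreated in each pair of same-numbered samples (coloured points) and their mean (black bar) for 65 of the 67 members, grouped by family and ordered by the mean, with an asterisk at the 9 that passed FDR 0.05 with the replicate block. Most means lie close to 0, and the widest pair values belong to SYT15 and STXBP2, whose counts are low.

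Counting by position rather than by test, 4 members had all isoproterenol values above all untreated values (SV2C, SYT10, STXBP4 and STXBP5) and 1, UNC13B, had all of them below, beside 6.73% and 6.19% of all tested genes. By pairs, 14 members were higher in all 3 pairs, where the share among all tested genes was 18.5%, and 10 were lower in all 3, where it was 17.6%. STXBP4, STXBP5 and UNC13B were named for this after their values were seen. STXBP4, a syntaxin-4 partner, had the largest log2 fold change of the 67, 0.46 ± 0.17 (SE), from 66.8, 80.3 and 67.2 to 88.8, 95.7 and 113, and passed in neither fit (adjusted p = 0.0865 with the block). STXBP5, or tomosyn, an inhibitor of SNARE assembly, was at 2691, 2689 and 2682 in untreated and 2846, 2772 and 2809.6 in isoproterenol samples (log2 fold change 0.064, adjusted p = 0.320 with the block). UNC13B, a priming factor related to UNC13A, was at 3629.6, 3509.6 and 3634 in untreated and 3403, 3455 and 3481 in isoproterenol samples (log2 fold change -0.059, adjusted p = 0.315 with the block).

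The rest of the release cycle was read through 5 further lists of 93 tested genes in all. Without the block none of the 93 passed FDR 0.05 with limma, edgeR or DESeq2, and 8, 8 and 6 had an unadjusted p under 0.05, beside 7.68%, 8.03% and 4.71% of all tested genes. With the block 10 passed with limma, 7 higher and 3 lower, beside 2.82% and 2.06% of all tested genes. Of 16 active zone scaffold genes, 4 were higher and none lower with the block. BSN, the large scaffold bassoon, went from 4408, 4300.1 and 4679 to 4990.1, 4873 and 4932, with no overlap (log2 fold change 0.15, adjusted p = 9.28e-05 with the block), and passed with each pair left out. PPFIA4 (0.17), LIN7A (0.13) and APBA2 (0.11) each passed in only 1 of the fits that left out a pair. Of 21 other regulators of fusion, CADPS (0.12), which primes dense-core vesicles, and SYTL5 (0.25) were higher, and 2 were lower, among them RAB3GAP1 (-0.14). SYTL5 passed with each pair left out, CADPS was lost without pair 1 (adjusted p = 0.0583), and RAB3GAP1 passed only without pair 2.

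Of 18 other vesicle membrane proteins, SYP, the abundant vesicle protein synaptophysin, was the member called. It fell from 19933, 20448 and 20705 to 18081, 19549 and 19019, with no overlap (log2 fold change -0.11, adjusted p = 4.31e-06 with the block and 0.443 without it), and passed with each pair left out. Of 34 endocytosis genes BIN1 (0.084) was higher with the block, though in none of the fits without a pair, and of the 4 NSF and SNAP adaptor genes, which take SNAREs apart, none was called. Of 7 genes of dense-core vesicles, 4 had a positive log2 fold change. SCG2 (0.076) and PCSK1 (0.14), a granin and a prohormone convertase, were called higher with the block, beside 2.82% of all tested genes. Neither passed limma without it (adjusted p = 0.942 and 0.689). The other granins listed, CHGA (-0.061), CHGB (-0.020) and SCG3 (-0.011), had negative values and were not called. SCG2 passed with each pair left out, and PCSK1 did not pass without pair 3 (adjusted p = 0.0993). The sum of the 13 glutamatergic markers, dominated by the neurofilament genes NEFL and NEFM, was 648250 to 690850 in untreated and 631390 to 645810 in isoproterenol samples, which did not overlap. The 13 had a median log2 fold change of 0.00047, 7 of them positive, and without NEFL and NEFM the sum of the other 11 was 120433 to 125204 and 121613 to 125610, which overlapped. The part of the marker sum in the lower SYT1, SYT9 and SYP was not tested.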

How the data were processed

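Poly(A) RNA-seq libraries from 3 untreated and 3 isoproterenol-treated samples of RBM12-depleted iNeurons were grouped by their titles. The authors aligned reads to GRCh38 with STAR, counted them per gene with featureCounts and divided each sample by a DESeq2 size factor. Tool versions, annotation release and strand setting are not given in the sources used here. The deposited signal is thus a normalized count per gene. All values were whole multiples of a step per sample (within 0.1 read), which returned whole reads and size factors of 0.867 to 1.03.

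Genes were kept where 4 or more samples had over 5 reads. Values were tested as log2(normalized count + 1) by limma 3.58.1 (R 4.3.3; robust moderation, intensity trend), without a block, and p-values were adjusted with Benjamini-Hochberg over 18130 genes. All tests were two-sided. The SE printed with a log2 fold change is that of the fit without the block unless stated. Fold changes on this scale understate changes of low genes. Between same-numbered samples, deviations from group means correlated at 0.269, 0.493 and 0.388 over the 11587 genes whose mean reached 100, against -0.351 to 0.00584 for other matches. Deviations from a group mean cancel within the group, so the low values of other matches are partly built in. On the positive same-number values, the numbers given in the titles were taken to pair the samples. A fit with replicate number as a block is printed where it changes a call. Replicates within a group were distinct (chi-square per degree of freedom 3.44 to 5.73). The fits were tested on simulated data first.

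The named members were the 14 core genes, up to 8 in each direction past FDR 0.05 in the fit with or without the block at a mean of at least 10, and the leading gene per kilobase of each family. Values of 3 genes, 2 of them members, are not reported here, though they stay in the counts and medians. The members and lists were chosen with earlier results of these data known. Positions and lengths came from GENCODE 44, in which all 67 members were found by identifier, and promoters from RefSeq. The alternatives were edgeR 4.0.16 with and without the block and DESeq2 1.42.0 on the recovered reads, TMM and total scaling, pseudocounts of 0.5 and 5, no filter, a mean of at least 50, and leaving out each sample or pair. The canonical transcript length was added after seeing the data.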

Additional observations from a re-analysis of the deposited data

How the results depend on the processing

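Replicate number as a block changed the calls most. The 0 members past FDR 0.05 became 9 in limma and 9 in edgeR, and the 3 genes of the whole table became 885 and 977, respectively, while DESeq2 without the block called 21. The block changed no other call among the named members. Leaving out a sample without the block gave 0 to 1 members, the 1 being SYT17 without isoproterenol replicate 2, and 2 to 67 genes, the 67 also without that sample. With the block, leaving out pairs 1, 2 and 3 gave 7, 6 and 3 members and 531, 665 and 456 genes. The median log2 fold change of the members was 0.0042 to 0.0191 when a sample was left out, highest without untreated replicate 3, and -0.0083 to 0.0057 when a pair was left out. The promoter share was 3.57% with the full motif and 32.1% with its core.

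Some named members with log2 fold changes near 0 turned sign. SNAP25 was at -0.0044 with edgeR, -0.0032 with edgeR and the block, -0.0043 with DESeq2 and -0.0024 with TMM scaling. Over the fits that left out a sample or a pair, the log2 fold change ranged from -0.067 to 0.038 for SNAP25, -0.012 to 0.031 for VAMP2, -0.013 to 0.047 for STX12, -0.024 to 0.13 for VAMP1, -0.035 to 0.11 for UNC13A, -0.013 to 0.035 for SNAP91, -0.11 to 0.024 for CPLX1, -0.025 to 0.00995 for SV2A and -0.01004 to 0.027 for RAB3A. With the block, SNAP25 was at -0.038 and SNAP91 at -0.01004 without pair 2, and RAB3A was at -0.0075 without pair 2 and -0.0065 without pair 3. Without the block, the range was -0.0039 to 0.044 for STX12 and -0.013 to 0.032 for SNAP91. Other members whose log2 fold changes lay near 0, among them SYT2, SYT11, RAB3C, RAB3D, RIMS4, UNC13D, STXBP3 and SV2B, also crossed 0 when a sample was left out.

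Whether the replicates came from separate differentiations is not given, and the call of any single member with 3 samples a group rests on small differences, of which those of SYT9, SYT6, RIMS3, SYT10, SYT4, SYT1 and SYT17 did not outlast every left-out pair. Depth was even between the groups and limited mainly the 6 members with a mean under 100.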

Other observations

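GRIN1, which encodes the obligatory subunit of NMDA receptors and was listed among the glutamatergic markers, was at 665, 547 and 672 normalized counts in untreated and 736, 723 and 846 in isoproterenol samples, with no overlap (limma log2 fold change 0.29, adjusted p = 0.000267 with the replicate block and 0.364 without it). NEFL, which made up much of the marker sum, had a log2 fold change of -0.045 (limma adjusted p = 0.000268 with the block), and NEFM, the next largest, one of -0.14 (limma adjusted p = 0.326 with the block).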
